A study of Rattus norvegicus with 54 samples.

Results

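Messenger RNA of rat cortical neuron cultures that received the rMBD3 virus was compared with that of untransfected cultures at 2 h. The comparison used the 12 libraries whose titles give these constructs at this time, out of 54 libraries in the series: 6 from cultures with AAV-SYN-rMBD3-GFP, an adeno-associated virus that carries rMBD3 and GFP under the SYN promoter, and 6 from cultures without virus. All cultures were neurons from the cortex of rat embryos at day 18 of gestation (E18). In each construct 3 libraries came from standard medium with magnesium and 3 from magnesium-free medium, the epileptiform condition of the study, and the 2 h were counted from the induction of epileptiform activity. How long the cultures had carried the virus by then is not given in the sources used here. The cultures were numbered 1 to 3, and each number was present in all 4 combinations of construct and medium. Cultures with the control virus, AAV-SYN-GFP, entered only where they are named. The labels give no rat strain, and they do not state whether the same-numbered cultures were split from 1 pool of cells. Culture number and medium were in the model, so p-values measure the spread left between these libraries after both. They rest on 3 culture numbers, each present in both media.

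MBD3 belongs to the methyl-CpG-binding domain family, and in mammals it binds methylated DNA weakly. It is a core subunit of the nucleosome remodelling and deacetylase (NuRD) complex, which joins histone deacetylases to a chromatin-remodelling ATPase and is best known for holding genes in a repressed state. Magnesium ions block the channel of NMDA-type glutamate receptors at rest, and taking magnesium away lets neuronal networks fire in synchronous bursts, which is why the medium serves as a model of seizure-like activity.

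Total counts per library were 23854049 to 32596463, and 15463 genes had enough counts to be tested. A count of 3, taken as the smallest detectable value, stood for 0.092 to 0.126 CPM (a library's counts scaled to the same total) and covers counting error only. Mitochondrial genes took 1.38% to 3.42% of the counts in untransfected and 1.41% to 2.65% in rMBD3 libraries. Most libraries of culture 1 stood apart on the first principal component, which held 34.1% of the variance. Its rMBD3 libraries scored 51.8 with and 69.9 without magnesium, and its untransfected library with magnesium scored 64.4. Its untransfected magnesium-free library scored only 3.8, against -42.2 to -7.4 for cultures 2 and 3. The untransfected magnesium library of culture 1 had the highest mitochondrial share, 3.42%. The deposited table names genes by Ensembl identifier only, and 0 of its identifiers matched the symbol table at hand, so genes are given by identifier and position (mRatBN7.2) and the neuronal identity of the cultures could not be checked with markers.

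The gene with the largest rise was ENSRNOG00000028956, on the plus strand of chromosome 7 from 9313098 to 9320165, with 1923 bases of exon. The symbol table places Mbd3 on the same chromosome, but the identifier itself was not paired with that symbol. In medium with magnesium, rMBD3 cultures 1, 2 and 3 had 14302, 13239 and 18022 CPM of it, and untransfected cultures 139, 117 and 198 CPM. Without magnesium the corresponding levels with rMBD3 were 18636, 7201 and 15940 CPM, and those without virus 161, 132 and 179 CPM. Every rMBD3 library thus lay far above every untransfected one, and culture 2 in magnesium-free medium was the lowest of them. The mean was 14556 ± 4160 CPM with rMBD3 and 154 ± 30.5 CPM without virus (SD, n = 6), a log2 fold change of 6.54 ± 0.18 (SE; adjusted p = 1.27e-10, edgeR). This gene took 0.731% to 1.82% of all counts of an rMBD3 library. GFP cultures had 112 to 172 CPM of it, with a median of 132 (log2 fold change against untransfected -0.12 ± 0.16, SE; adjusted p = 0.896, edgeR), which overlapped the untransfected range. The nearest tested genes on either side had log2 fold changes of -0.16 ± 0.36 and -0.2 ± 0.13 (SE; adjusted p = 0.87 and 0.485, edgeR) and did not pass.

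**Figure D1:**
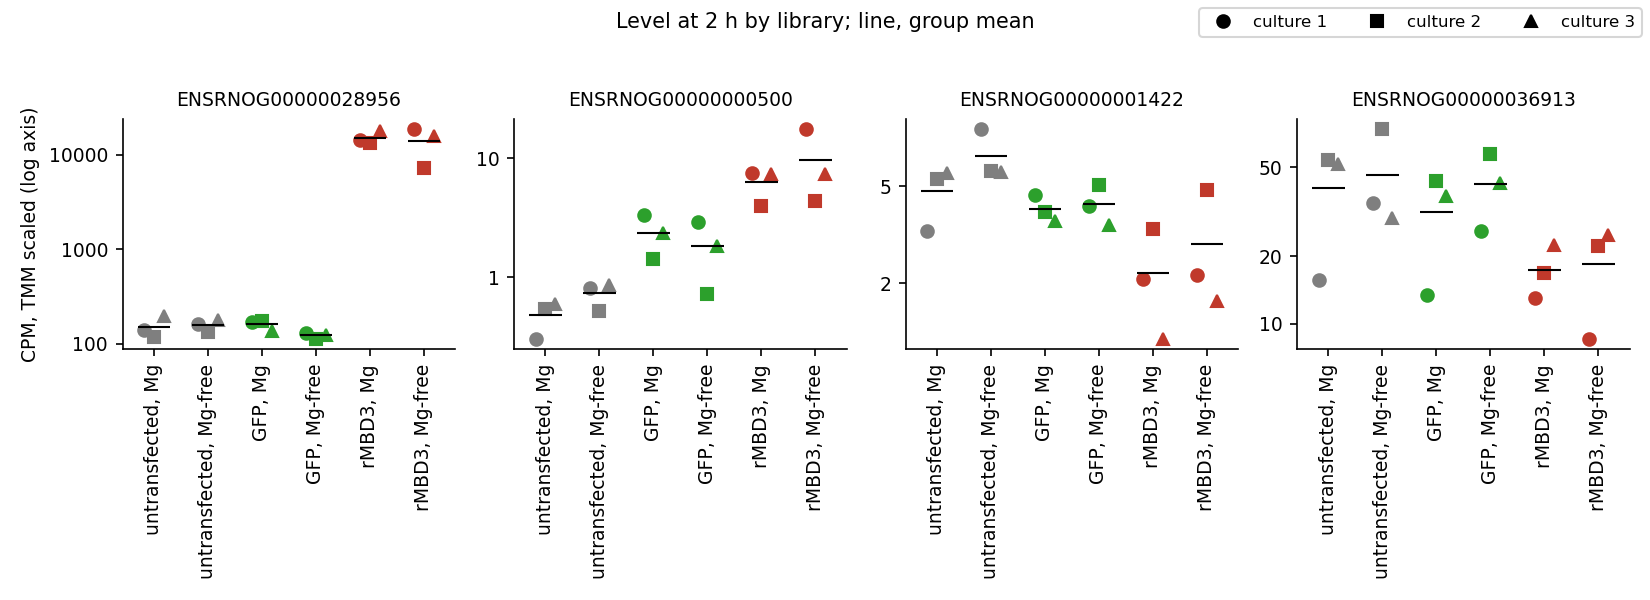
Level of 4 genes in each of the 18 libraries of 2 h, in TMM-scaled CPM on a log axis. Points are libraries, with the symbol giving the culture number, and lines are group means (n = 3). ENSRNOG00000028956 lies between 7201 and 18636 CPM in rMBD3 libraries and between 112 and 198 elsewhere.

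Across the genome, 343 of the 15463 genes tested (2.22%) differed at an adjusted p of 0.05 in edgeR, with medium and culture number in the model. RNA of whole cultures was measured, so fewer cells of a type and less RNA per cell cannot be told apart in any of these genes. Of these, 271 were higher in rMBD3 cultures (1.75% of the genes tested) and 72 were lower (0.466%), so that rises made up most of the calls. The median log2 fold change was 0.82 among the higher genes (quartiles 0.63 and 1.18) and -0.6 among the lower ones (-0.88 and -0.45), while over all genes tested it was -0.01. A change of at least 1 on the log2 scale was reached by 101 of the higher and 15 of the lower genes. Without the culture number as a block 87 genes passed, 76 higher and 11 lower, and all 87 were among the 343.

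**Figure D2:**
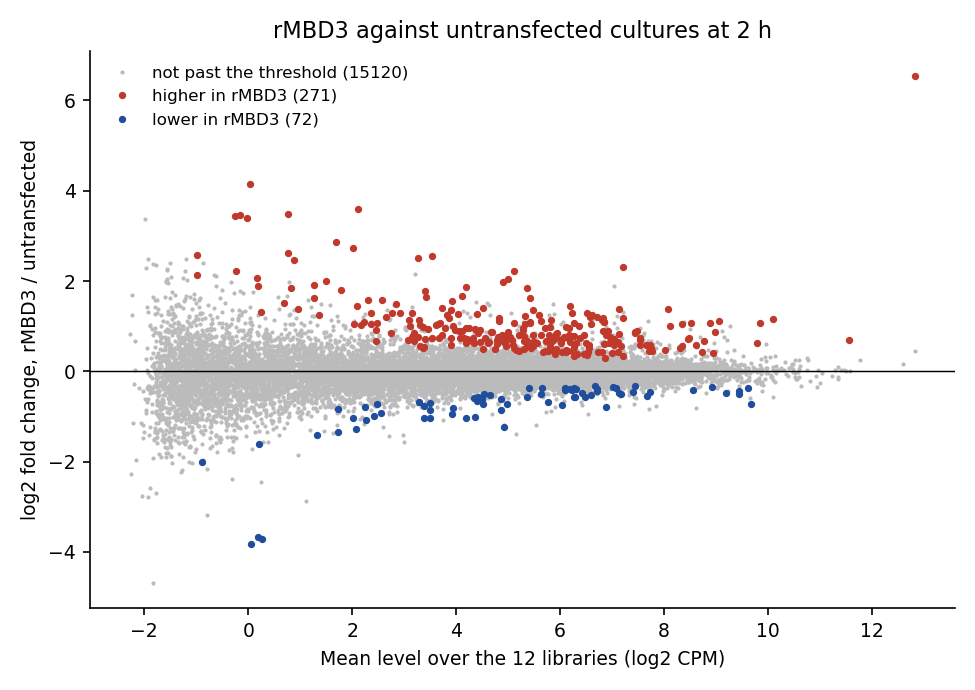
Log2 fold change of each gene between rMBD3 and untransfected cultures at 2 h (vertical axis) against its mean level in log2 CPM (horizontal axis). Red points are the 271 genes that were higher, blue points the 72 that were lower and grey points the genes that did not pass; ENSRNOG00000028956 stands alone at 6.54.

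The called genes were mostly of moderate abundance. Their median level over both constructs was 39.8 CPM for the higher and 36.5 CPM for the lower genes, against 22.6 CPM over all genes tested. The share of genes called rose with mean level, from 0.335% under 1 CPM to 3.06% over 100 CPM, so low genes were seldom called in either direction. The higher genes had a median level of 27.7 CPM in untransfected and 51.1 CPM in rMBD3 cultures, and the lower genes 45.7 and 28.9 CPM. Among the higher genes 17 had a mean under 1 CPM in untransfected cultures, so few of the rises started near 0. All 6 pairs of the same medium and culture number had the sign of the call in 247 of the 271 higher and 66 of the 72 lower genes. The 6 rMBD3 libraries lay wholly above the 6 untransfected ones in 98 of the higher genes, and wholly below them in 24 of the lower genes. Over all genes tested, 0.989% separated upward and 0.44% downward in this way. These counts rest on the libraries that made the calls and describe their spread only.

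Genes described individually had a mean level of at least 1 on the log2 CPM scale and the same sign in all 6 pairs. After the first gene, the largest rise among them was in ENSRNOG00000000500, on chromosome 20 from 6199182 to 6228584 (plus strand, 4385 bases of exon). With magnesium, rMBD3 cultures 1, 2 and 3 had 7.6, 3.98 and 7.33 CPM, and untransfected cultures 0.305, 0.541 and 0.602 CPM. Without magnesium the values were 17.5, 4.36 and 7.4 CPM with rMBD3 and 0.816, 0.523 and 0.87 CPM in untransfected cultures. The groups did not overlap, and the untransfected libraries held 7 to 27 counts of it. This was a 12-fold rise, or 3.59 ± 0.29 on the log2 scale (SE; adjusted p = 6.35e-05, edgeR). It was also higher with the control virus: GFP cultures had 0.729 to 3.36 CPM (median 2.1), and their log2 fold change against untransfected cultures was 1.69 ± 0.3 (adjusted p = 0.0373, edgeR). The lowest GFP library lay inside the untransfected range. This GFP call was lost without the culture block, without culture 2 or 3 and with all 54 libraries, where 0 genes passed as higher with GFP. From GFP to rMBD3 cultures it rose further, by 1.87 ± 0.26 (adjusted p = 0.000288, edgeR). Its group means were lowest without virus, intermediate with GFP and highest with rMBD3. The untransfected and rMBD3 libraries of these comparisons are those that chose this gene.

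The largest falls that met the same conditions were in ENSRNOG00000001422 and ENSRNOG00000036913. ENSRNOG00000001422 lies on chromosome 12 from 19792728 to 19938556 (plus strand, 2743 bases of exon). With magnesium it had 2.07, 3.35 and 1.18 CPM in rMBD3 cultures 1, 2 and 3, against 3.27, 5.37 and 5.68 CPM in untransfected cultures. Without magnesium it had 2.17, 4.81 and 1.69 CPM against 8.56, 5.78 and 5.73 CPM. Each rMBD3 library was below its untransfected partner, but the groups overlapped. Its difference on the log2 scale was -1.28 ± 0.27 (SE; adjusted p = 0.0247, edgeR), and GFP cultures had 3.47 to 5.04 CPM (median 4.03), inside the untransfected range (GFP against untransfected -0.47 ± 0.23; adjusted p = 0.564, edgeR).

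ENSRNOG00000036913, on chromosome 4 from 182335454 to 182362054 (plus strand, 7298 bases of exon) varied more between cultures. With magnesium it had 13, 16.9 and 22.4 CPM in rMBD3 cultures 1, 2 and 3 and 15.6, 53.9 and 51.5 CPM in untransfected ones. Without magnesium it had 8.54, 22.1 and 25 CPM against 34.6, 73.7 and 29.7 CPM. The gap was small in culture 1 with magnesium and in culture 3 without, and the untransfected magnesium library of culture 1 lay inside the rMBD3 range. Its difference on the log2 scale was -1.23 ± 0.24 (SE; adjusted p = 0.0212, edgeR). GFP cultures had 13.4 to 57.2 CPM (median 39.8; GFP against untransfected -0.26 ± 0.21, adjusted p = 0.798, edgeR). Without the culture block both calls were lost, at log2 differences of -1.16 and -1.26 (adjusted p = 0.153 and 0.19, edgeR). The call of ENSRNOG00000001422 was also lost without culture 1, 2 or 3, at -1.19, -1.7 and -0.9 (adjusted p = 0.0564, 0.0747 and 0.153, edgeR). That of ENSRNOG00000036913 was lost without culture 2, at -0.99 (adjusted p = 0.366, edgeR), and kept without culture 1 or 3. Over all alternatives their adjusted p-values ran from 0.000275 to 0.29 and from 7.75e-06 to 0.366, the lowest with DESeq2.

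The split between rises and falls was read by gene size, in classes chosen after seeing the data. The span of a gene, from its first to its last annotated base, was 23360 bases at the median of the higher genes, 30569.5 at that of the lower genes and 22146 over all genes tested. Among the 4489 genes under 10 kb, 77 were higher and 13 lower. From 10 to 30 kb the counts were 83 and 21 of 4624 genes, from 30 to 100 kb 72 and 21 of 4167, and from 100 to 300 kb 33 and 9 of 1671. Among the 512 genes over 300 kb, 6 were higher and 8 lower, so rises made up 42.9% of the 14 calls there and 77.4% to 85.6% in the other classes; this difference was not tested. Of genes at 10 to 100 CPM, a comparable range of depth, 1638 were under 10 kb, with 45 higher (2.75%) and 4 lower (0.244%). Over 300 kb there were 290, with 4 higher (1.38%) and 5 lower (1.72%). Of all 7315 genes at this level, 2.16% were higher and 0.506% lower.

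The median over all genes of a class moved the same way, from 0.05 under 10 kb to -0.1 over 300 kb on the log2 scale. This slope differed between cultures. The median log2 ratio of genes over 300 kb was -0.51 and -0.07 in culture 1 (with and without magnesium), -0.09 and -0.14 in culture 2, and 0.06 and 0.16 in culture 3. In culture 3 the median was thus above 0. Between GFP and untransfected libraries it was -0.24 and 0.05 in culture 1, 0.1 and 0.06 in culture 2, and 0.15 and 0.26 in culture 3. From GFP to rMBD3 cultures the median was -0.16 over 300 kb and 0.05 under 10 kb. In that comparison 34 of 515 genes over 300 kb were higher and 104 lower (edgeR), against 1214 and 914 of all 15705 genes tested. The untransfected magnesium library of culture 1, which had the highest mitochondrial share, also had the highest level of long relative to short genes, a log2 difference of medians of 2 against 1.35 to 1.61 in the other untransfected libraries; its part in the result was not tested. Between rMBD3 and untransfected cultures at 6 h the medians were -0.01 under 10 kb and 0.03 over 300 kb, and at 24 h they were -0.08 and -0.35.

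**Figure D3:**
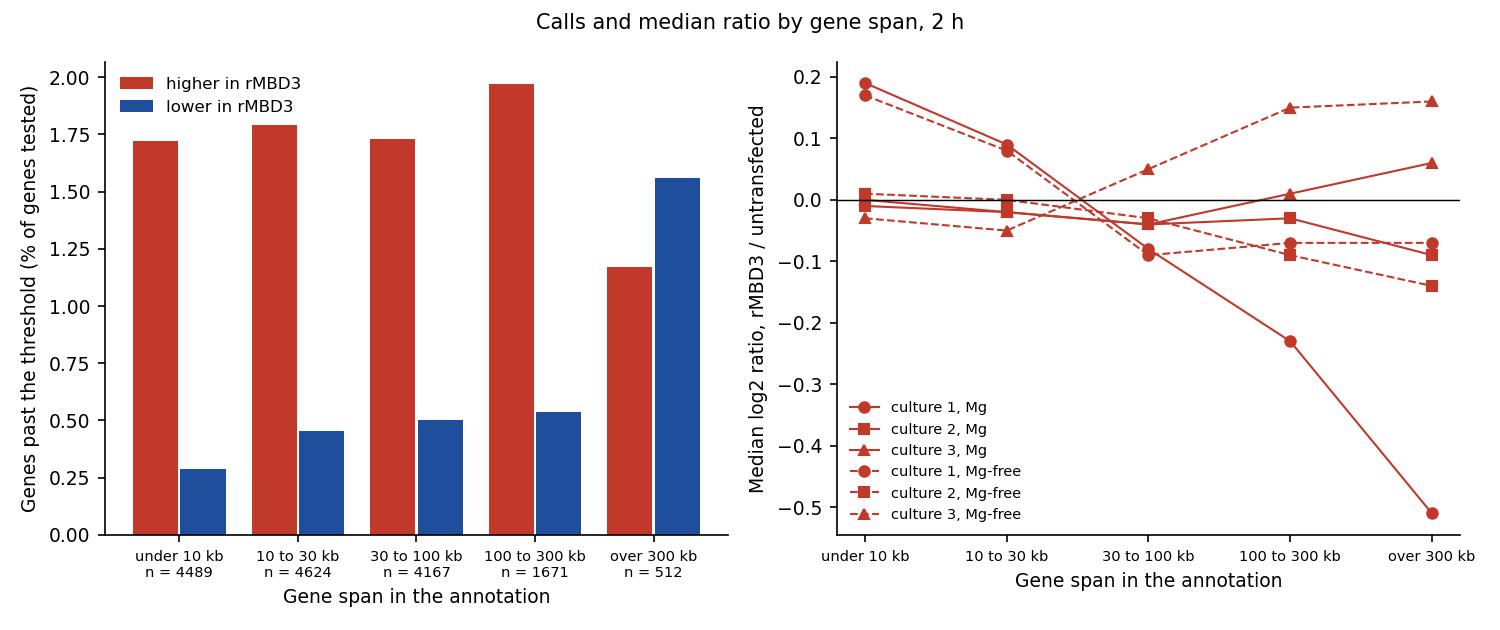
Left, share of the genes tested that passed the threshold in each class of gene span, higher (red) and lower (blue) in rMBD3. Right, median log2 ratio of rMBD3 to untransfected libraries in each class, with 1 line per culture and medium; for genes over 300 kb the lines run from -0.51 to 0.16.

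Of 21 genes on the mitochondrial chromosome, 0 passed in either direction (edgeR; smallest adjusted p = 0.39), where 2.22% of all genes tested passed, with a median log2 fold change of 0.06 and a range of -0.9 to 0.71.

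The rMBD3 difference within each medium was also read, in a model of all 12 libraries with an interaction of construct and medium. Neither medium was fitted alone, so the spread was shared over the 12 libraries. Fewer genes passed in either medium than over both together. Within medium with magnesium, 13 genes passed, all 13 of them higher (0.0841% of genes tested; edgeR), and 7.68% had an unadjusted p-value under 0.05. Within magnesium-free medium 87 passed (0.563%), 84 higher (0.543%) and 3 lower (0.0194%), and 9.72% had an unadjusted p-value under 0.05. Without culture 2 these counts were 1 and 4, without culture 3 they were 6 and 28, and without culture 1 they were 33 and 161. Without the culture block they were 1 and 1. For the 270 higher genes other than ENSRNOG00000028956, the median log2 fold change was 0.69 with magnesium and 0.94 without, and for the 72 lower genes it was -0.58 and -0.61. These genes were called over both media together, so a shift within each medium is partly fixed by their selection. An interaction term tested whether the effect differed between the media, and 0 genes passed (0% called, with 2.41%, or 373 genes, at an unadjusted p-value under 0.05; edgeR), against 5 with DESeq2. The effect was larger without magnesium in 206 of the 270 higher genes (76.3%), compared with 52.1% of all genes tested, and the median difference was 0.21 against 0.01. Both sets were chosen over the same libraries, so this is a description. Among the lower genes the effect was more positive without magnesium in 36 of 72. ENSRNOG00000028956 differed by -0.26 ± 0.3 between the media (SE; adjusted p = 1, edgeR).

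By culture, the median log2 ratio of the 270 higher genes was 0.78 and 1.05 in culture 1 (with and without magnesium), 0.82 and 0.98 in culture 2, and 0.5 and 0.81 in culture 3. In each of the 6 pairs at least 257 of the 270 had a positive ratio. The 72 lower genes had medians of -0.64 and -0.73, -0.56 and -0.5, and -0.52 and -0.6, and in each pair at least 69 of them were negative. Over all genes tested, the medians of the 6 pairs ran from -0.03 to 0.05. Both sets were called in these same pairs, so their shared sign is largely fixed by selection and describes the spread only.

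The number of calls depended on single cultures. Without culture 2, 19 genes passed, all 19 of them higher and among the 343. Without culture 3 there were 265 and without culture 1 there were 507. Leaving out 1 library moved the count by more than 1.5 times in 7 of 12 cases. The 4 libraries of culture 2 were among these: the count fell to 171 without the rMBD3 library with magnesium, 178 without the untransfected magnesium-free, 180 without the untransfected magnesium and 216 without the rMBD3 magnesium-free library. It fell to 219 and 225 without the rMBD3 magnesium-free library of culture 3 or 1, and rose to 579 without the untransfected magnesium library of culture 1.

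**Figure D4:**
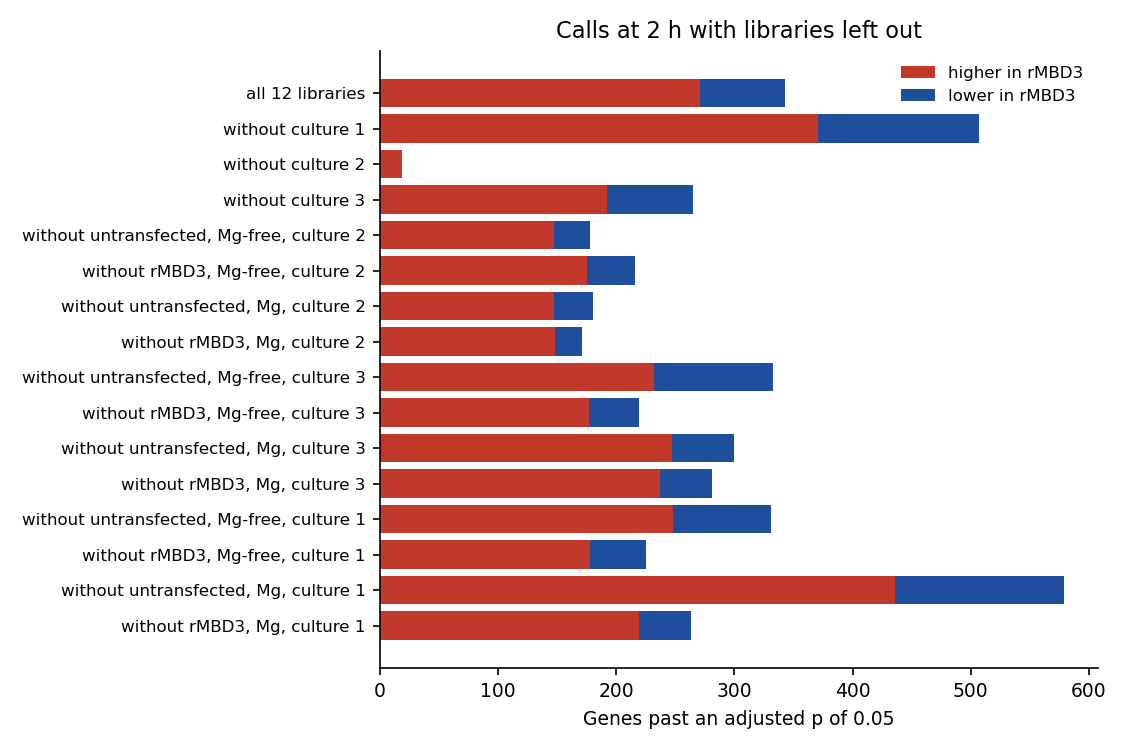
Number of genes past an adjusted p of 0.05 at 2 h (edgeR), higher (red) and lower (blue) in rMBD3, with all 12 libraries and with 1 culture number or 1 library left out. The count runs from 19 without culture 2 to 579 without the untransfected magnesium library of culture 1.

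Cultures with the GFP control virus were compared in a model of all 18 libraries of 2 h, which shares untransfected and rMBD3 libraries with the comparison above. Against untransfected cultures, 23 genes passed with GFP (0.146%; edgeR), 4 higher (0.0255%) and 19 lower (0.121%), and 9.08% had an unadjusted p-value under 0.05. Between rMBD3 and GFP 2128 passed (13.5%), 1214 higher (7.73%) and 914 lower (5.82%). Without culture 2 these counts were 0 and 111, without culture 1 they were 126 and 1759, and without culture 3 they were 1 and 1660. Without the culture block they were 0 and 554. In the same model rMBD3 against untransfected cultures gave 739 genes, 458 higher and 281 lower, and 324 of the 343 were among them. The 270 higher genes had a median log2 fold change of 0.02 between GFP and untransfected cultures and 0.89 between rMBD3 and GFP. The 72 lower genes had -0.07 and -0.5. In the GFP comparison 4 of the higher genes and 1 of the lower ones passed in the same direction, with ENSRNOG00000000500 among the 4. Both sets were chosen with the same untransfected and rMBD3 libraries. These medians and shared calls are therefore partly fixed by selection and are a description only.

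The same genes were then read at 6 h and 24 h, in libraries that had no part in the 2 h calls, although the culture numbers were the same. At 6 h 732 of 15588 genes passed (4.7%), 492 higher (3.16%) and 240 lower (1.54%). Of the 270 genes higher at 2 h, 267 had a positive log2 fold change at 6 h, compared with 49.6% of all genes tested, and 153 passed as higher. Of the 71 lower genes that could be tested, 66 were negative, compared with 50.4% of all genes, and 27 passed as lower. The median log2 fold change was 0.66 and -0.42.

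At 24 h 258 of 15483 genes passed (1.67%), 145 higher (0.937%) and 113 lower (0.73%). The balance of rises and falls at 24 h depended on the model. DESeq2 gave 472 higher and 1092 lower, and all 54 libraries in 1 model gave 762 higher and 1750 lower. Of 269 genes higher at 2 h, 234 were positive, compared with 49% of all genes tested, and 68 passed. Of 70 lower genes, 66 were negative, compared with 51% of all genes, and 6 passed. Medians were 0.56 and -0.8. Most genes of both sets thus had the sign of their 2 h call at both later times. The counts of called genes at 6 h and 24 h were 1640 and 57 without culture 1, 125 and 10 without culture 2, and 162 and 32 without culture 3. Without the culture block they were 133 and 25.

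**Figure D5:**
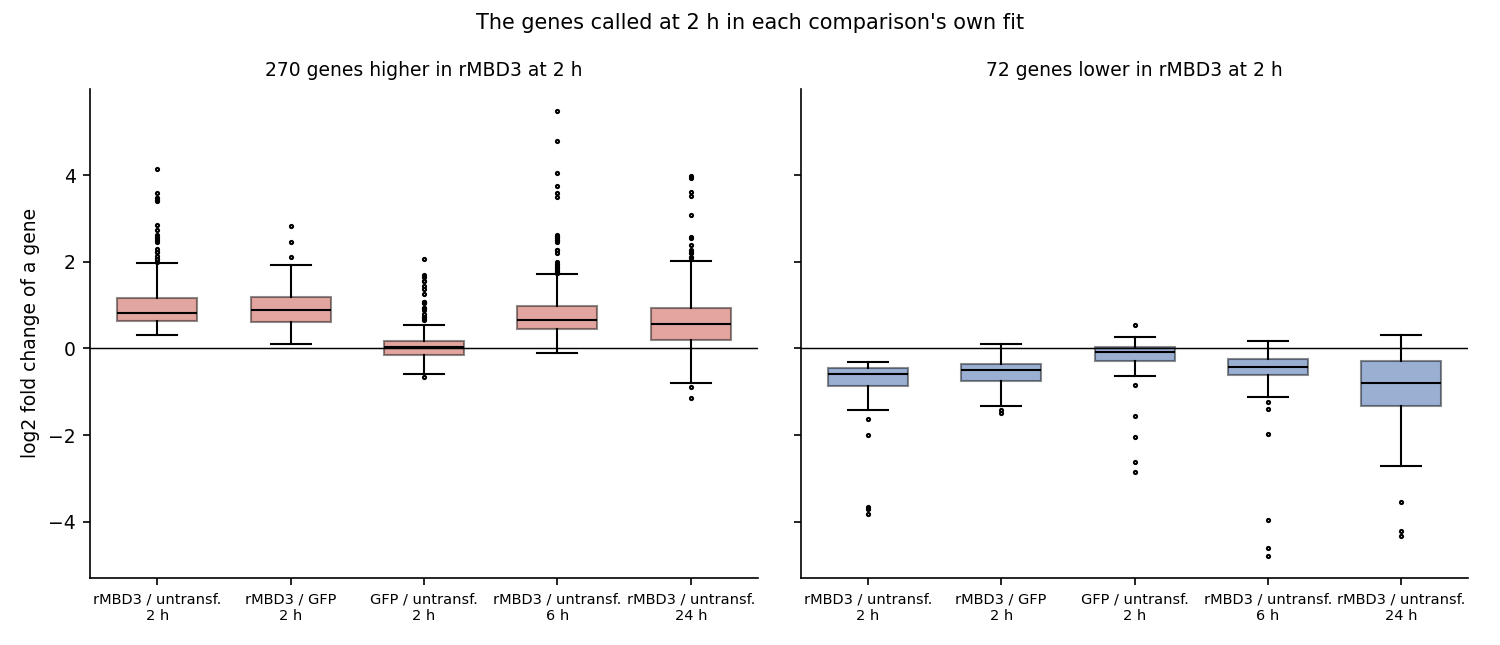
Log2 fold changes of the genes higher (left, 270 genes, without ENSRNOG00000028956) and lower (right, 72 genes) in rMBD3 at 2 h, in 5 comparisons; both comparisons with GFP come from 1 model of 18 libraries and the others from a model of 12 libraries each. Boxes are quartiles with the median as a line. The box of rMBD3 against untransfected at 2 h shows the values that chose the genes, and both comparisons with GFP share libraries with it. The medians of the higher genes are 0.82, 0.89, 0.02, 0.66 and 0.56 from left to right.

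The 4 genes described above were read at the later times in the same way. ENSRNOG00000028956 had a log2 fold change of 5.48 ± 0.12 at 6 h and 4.19 ± 0.29 at 24 h (SE; adjusted p = 2.98e-11 and 7.63e-05, edgeR), and 6.54 at 2 h. Its difference from 2 h was -1.04 ± 0.19 at 6 h, which did not pass (adjusted p = 0.0721, edgeR), and that at 24 h was -2.24 ± 0.36 (adjusted p = 0.0275, edgeR). ENSRNOG00000000500 had 4.78 ± 0.42 and 3.93 ± 0.52 (adjusted p = 0.000107 and 0.00603, edgeR), and no difference from its value at 2 h passed (1.24 ± 0.5 and 0.25 ± 0.62; adjusted p = 0.634 and 0.902, edgeR). ENSRNOG00000001422 had -1.4 ± 0.49 at 6 h and -2 ± 0.61 at 24 h, without passing (adjusted p = 0.13 and 0.107, edgeR). ENSRNOG00000036913 had 0.17 ± 0.33 and -0.2 ± 0.43 (adjusted p = 0.846 and 0.839, edgeR). The difference of these from its value at 2 h was 1.47 ± 0.43 and 1.33 ± 0.65 and did not pass (adjusted p = 0.488 and 0.497, edgeR).

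Whether the effect itself changed with time was tested in models of 24 libraries each. Between 6 h and 2 h 0 genes passed (0%, with 1213 genes, or 7.47%, at an unadjusted p-value under 0.05; edgeR, no other tool run). Between 24 h and 2 h 2 genes of 16420 passed (0.0122%), and 10.2% had an unadjusted p-value under 0.05. ENSRNOG00000028956 was one, with the smaller effect at 24 h given above. The other gene, ENSRNOG00000020030, on chromosome 16 from 18924722 to 18935997 (minus strand), lay outside the naming rule and is named after its values were seen. Its log2 fold change was 0.11 ± 0.13 at 2 h and 2.23 ± 0.3 at 24 h (SE; adjusted p = 0.717 and 0.00624, edgeR). It had 271 to 495 counts in the 12 libraries of 2 h, while at 24 h rMBD3 libraries had 699 to 1515 and untransfected libraries 134 to 452. These are raw counts, not scaled for the depth of a library. GFP cultures of 24 h were not read for this gene.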

How the data were processed

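Per the file headers, the deposited counts are whole-number counts of read pairs per gene, made by the authors with featureCounts 2.0.0 (reverse strand setting 2, minimum mapping quality 3, primary alignments) on Ensembl release 105 of mRatBN7.2; the labels' protocols name STAR and rn6. Counting used strand. Reads shared by near-identical genes can be lost or misplaced, and reads of the introduced and the native copy of a gene are summed. The deposited log2 table was not used.

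Low genes were removed with filterByExpr (count 10, total 15); the rest were scaled by TMM and tested with edgeR 4.0.16 in R 4.3.3 (robust quasi-likelihood, Benjamini-Hochberg over all genes tested, threshold 0.05). The model held construct, medium and culture number. Same-numbered libraries of different groups deviated together with a mean correlation of 0.283 over 18 pairs (range -0.0876 to 0.601; means 0.427, 0.299 and 0.123 for cultures 1, 2 and 3); the number is that of the cell culture label. Chi-square per gene within groups was 9.76 to 192, so no library looked like a copy. SE came from the fold change and F statistic. CPM in the text used the 18 libraries of 2 h, and pair ratios used 0.1 CPM as a pseudocount. Scripts were tested on simulated data.

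Printed genes had the largest changes among called genes with a mean log2 CPM of at least 1 and the same sign in all 6 pairs (232 higher and 61 lower qualified); the rule asked for symbols and more genes, and as none (0) of the 30560 Ensembl identifiers was found in a symbol table of 47357 genes (GRCr8), up to 2 per direction are given and the planned gene lists and cell type markers were not analysed here. Comparisons, lists and members were chosen with earlier results of these data known; span classes, the 6 h and 24 h comparisons and single-library exclusions were chosen after seeing the data.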

Additional observations from a re-analysis of the deposited data

Results flagged for a closer look

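With 3 libraries in a group, single libraries were not tested for lying apart. The rMBD3 effect at 24 h differed from that at 2 h, by a test of the difference itself, in 2 genes: ENSRNOG00000028956, with a log2 difference of -2.24 ± 0.36, and ENSRNOG00000020030, with 2.12 ± 0.33 (SE; adjusted p = 0.0275 for both, edgeR, 24 libraries). No alternative was run for this pair of differences.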

How the results depend on the processing

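The number of genes past the threshold moved with the model and the cultures. All 343 genes kept their sign in every alternative run at 2 h, a direction partly fixed by their selection. Without the replicate block the counts were 87 at 2 h (main 343), 1 in magnesium and 1 in magnesium-free medium (13 and 87), 0 for GFP against untransfected (23), 554 for rMBD3 against GFP (2128), 133 at 6 h (732) and 25 at 24 h (258). DESeq2 gave 817 at 2 h, holding all 343, and 5 for the difference between media (0), 169 and 416 within media, 261 for GFP, 1380 at 6 h and 1564 at 24 h. Without a low-count filter 37 and 147 passed within media. All 54 libraries in 1 model gave 139 at 2 h, 30 in magnesium-free medium, 4 for GFP, 458 for rMBD3 against GFP, 410 at 6 h and 2512 at 24 h. All 18 libraries of 2 h gave 739. With the virus-borne gene left out of library sizes (taken as the gene with the largest rise), 14 passed for GFP. Leaving out 1 culture or library gave 19 to 579 at 2 h, and leaving out 1 culture gave 1 to 33 and 4 to 161 within media, 0 to 126 for GFP, 111 to 1759 for rMBD3 against GFP, 125 to 1640 at 6 h and 10 to 57 at 24 h. The cause of these moves was not tested. For rMBD3 against untransfected cultures at 2 h, ENSRNOG00000028956 and ENSRNOG00000000500 passed in all 22 alternatives. ENSRNOG00000001422 passed in 10 and ENSRNOG00000036913 in 12, and none reversed. The gene list counts were not run.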

Other observations

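The 3 genes with the largest falls among the called genes at 2 h lay side by side on the minus strand of chromosome 5 (mRatBN7.2), at 149118846 to 149124407, 149127415 to 149131017 and 149133636 to 149136534, with no other gene of the count table between them. They were too low for the individual descriptions above and were singled out after their values were seen. Their log2 fold changes between rMBD3 and untransfected cultures were -3.71 ± 0.71, -3.82 ± 0.74 and -3.66 ± 0.73 (SE; adjusted p = 0.0154, 0.0154 and 0.0201, edgeR), and all 3 were lower in each of the 6 pairs. The first had 174, 15 and 5 counts in untransfected cultures 1, 2 and 3 with magnesium and 79, 33 and 16 without. With rMBD3 it had 34, 1 and 1 counts with magnesium and 1, 0 and 0 without. Culture 1 held most of the counts. GFP cultures had 15, 3 and 9 counts with magnesium and 2, 2 and 2 without. The mean levels of the 3 genes were 2.13, 1.82 and 1.97 CPM without virus, 0.221, 0.288 and 0.303 CPM with GFP, and 0.228, 0.223 and 0.245 CPM with rMBD3. GFP was not below untransfected in every pair: in culture 3 with magnesium the first gene had 9 counts with GFP and 5 without virus. Cell type markers could not be read here, and the part of cell composition was not tested.

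Genes on the X chromosome had a median log2 fold change of -0.12 at 2 h (529 genes), against -0.01 over all genes tested. This chromosome was picked from a reading of every chromosome. The 4 genes tested on chromosome Y had a median of -0.17, and the lowest median of a numbered chromosome was -0.066, on chromosome 2 (1002 genes). On the X chromosome 5 genes were higher (0.945%) and 2 lower (0.378%, edgeR), against 1.75% and 0.466% of all genes tested. By pair, the median of the X chromosome was -0.16 and -0.24 in culture 1 (with and without magnesium), -0.11 and -0.12 in culture 2, and -0.04 and 0.13 in culture 3. Between GFP and untransfected libraries the same 6 pairs ran from -0.07 to 0.18. At 6 h the median was 0.03 and at 24 h -0.09.

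Of the 343 called genes, 31 (9.04%) had a called gene as a direct neighbour among the genes tested. Of all genes tested, 4.38% had a called neighbour. For 25 of the 31 that neighbour had moved in the same direction. Most called genes were higher (271 of 343), and no background was computed for the shared direction. The chromosome 5 genes described above, all lower, count among both the 31 and the 25. Overlap of neighbouring transcripts was not examined.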
